A study of Mus musculus with 19 samples.

Results

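The non-additive effects of deleting the miR-290 and the miR-302 microRNA clusters were described from 15 of the 19 libraries, all of mouse induced pluripotent stem cells (iPSC). The cells were reprogrammed from fibroblasts of embryos by Oct4, Sox2 and Klf4. The 15 libraries were chosen by their label as iPSC and form 9 samples in 4 groups, of 13 samples in the whole series. Wild-type (WT) iPSC carried both clusters, miR-290 knockout (KO) iPSC lacked miR-290 and kept miR-302, miR-302 KO iPSC lacked miR-302 and kept miR-290, and double KO iPSC lacked both. Each KO group had 2 colonies with 2 libraries per colony, and the libraries of a colony were averaged. The colony is the biological replicate per the series' design text. WT had 3 libraries, which that text excepts from independent derivation. They may stand for 1 derivation, so p-values measure the spread between these samples, which may be technical. All cells were grown with LIF and serum and were collected after more than 18 passages. The other 4 libraries, of embryonic stem cells (ESC), entered only a description at the end.

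Both clusters are transcribed in pluripotent cells and give rise to families of microRNAs that share a seed, the bases near the 5′ end that pair with target messenger RNAs and lower their stability and translation. They are known for speeding the passage from G1 to S phase, for limiting apoptosis and for helping fibroblasts become pluripotent. Because members of the 2 clusters share a seed, the clusters can act on common targets, and loss of both may differ from the sum of the separate losses. The mature sequences below show that sharing. They are from RefSeq (GRCm38.p6), 5′ to 3′, with bases 2 to 8, the seed, in capitals. The miR-290 cluster spans chr7:3218626-3220841 and the miR-302 cluster chr3:127545228-127545807, both on the plus strand. In the first 5 sequences, 3 from miR-290 and 2 from miR-302, the seed is AAGUGCU. miR-302c-3p holds the same letters 1 base nearer the 5′ end, and miR-367-3p of the miR-302 cluster has a seed of its own. Some other members of both clusters were searched for by name but not found, so the list is not complete.
miR-291a-3p: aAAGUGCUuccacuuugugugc
miR-294-3p: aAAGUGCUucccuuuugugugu
miR-295-3p: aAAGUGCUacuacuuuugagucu
miR-302b-3p: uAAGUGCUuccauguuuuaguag
miR-302d-3p: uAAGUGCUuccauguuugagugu
miR-302c-3p: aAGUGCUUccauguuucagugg
miR-290a-3p: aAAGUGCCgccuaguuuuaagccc
miR-291b-3p: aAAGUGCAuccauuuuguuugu
miR-293-3p: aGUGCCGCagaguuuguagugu
miR-367-3p: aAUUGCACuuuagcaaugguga

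Departure from additivity was measured for each gene as the interaction term, the change from miR-290 KO to double KO minus the change from WT to miR-302 KO, on the log2 scale. The term is 0 where the double KO change against WT equals the sum of the single KO changes. Genes with a positive term are called above the sum and genes with a negative term below it. Calls were made in limma where the p adjusted over 12778 genes by Benjamini and Hochberg's method was under 0.05. Levels are CPM, recovered whole reads of a gene scaled to a common library total, and a level given for a KO sample is the mean CPM of a colony's libraries, while terms rest on the means of their log2 values.

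The iPSC libraries held between 6494022 and 25226161 recovered reads, with a median of 17629354. A pair of libraries from 1 colony were apart by 1 or more (log2) in 44.2% of 9041 genes with at least 5 CPM in WT for miR-302 KO colony 1, against 2.41% to 12.4% for the other 5 colonies. In that colony library 2 stood apart, so counts are also given with this colony taken from its library 1 alone. Xist, the RNA that silences an X chromosome in female cells, had 0 reads in the 3 WT libraries and 621 and 645 CPM in the double KO colonies. The Y-linked Ddx3y had 7.81, 7.90 and 8.60 CPM in WT and 0.141 and 0.205 CPM in the double KO, with 44.4 and 49.6 CPM in miR-290 KO and 6.43 and 6.16 CPM in miR-302 KO. Sex chromosome content and the double KO genotype cannot be told apart. Without chromosomes X and Y, 1320 genes were above and 1310 below the sum. No precursor of either cluster was among the rows of the matrix, so the deletions were not checked here. Larp7, whose gene span contains the miR-302 cluster, had 298 ± 22.7 CPM in WT (SD, n = 3) and 266 ± 15.2 CPM in miR-302 KO (SD, n = 2). A 3′ tag of Larp7 lies outside the cluster and checks nothing about its deletion.

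Loss of both clusters differed from the sum of the separate losses in 2773 of 12778 genes, 1399 above the sum (10.9%) and 1374 below it (10.8%). At an unadjusted p under 0.05 there were 4618. Most genes above the sum were raised in the double KO: 1208 of the 1399 were called higher than in WT and 4 lower. Of the 1374 below the sum, 1163 were called lower in the double KO than in WT and 5 higher. Over all genes 26.9% were called higher in the double KO than in WT and 20.6% lower. The genes above the sum had median levels of 12.1 CPM in WT, 16.1 CPM in miR-290 KO, 10 CPM in miR-302 KO and 66.7 CPM in the double KO. For genes below the sum the medians were 13.7, 16.3, 16.5 and 0.762 CPM in the same order. In both directions the medians of WT and both single KO groups lay closer to each other than to that of the double KO. The genes were selected by a term computed from these same values, including those of the double KO and WT. These counts and medians therefore describe the selected genes and are no further support. With miR-302 KO colony 1 taken from library 1, 1391 genes were above and 1603 below the sum, and 2488 of the original calls were shared with the same sign. With each sample left out in turn, 533 of the genes above and 731 of those below were called every time. The median term over all genes was 0.13, and 0.05 under median-of-ratios scaling.

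**Figure D1:**
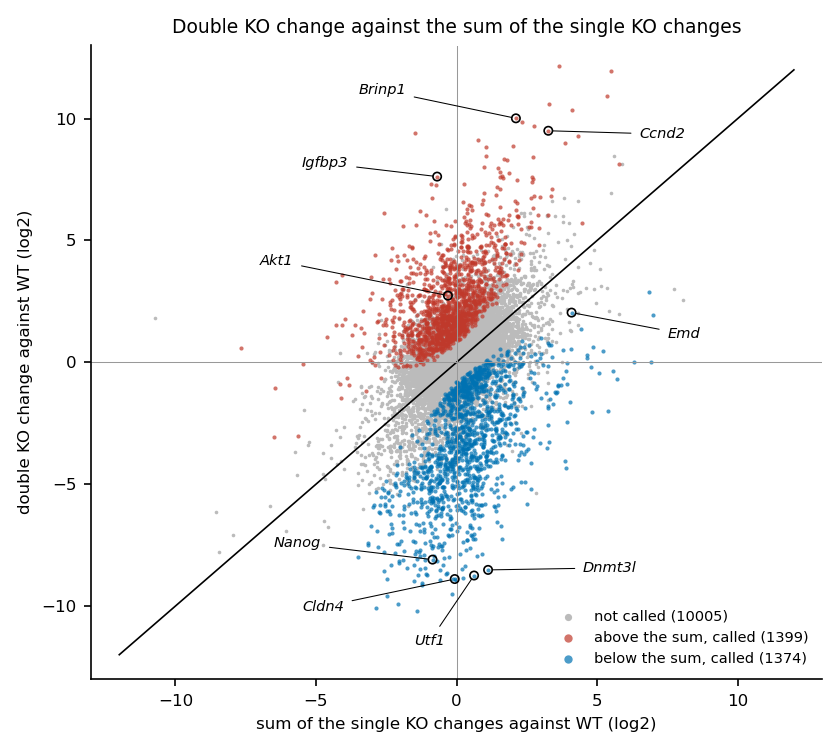
Change of each gene from WT to double KO (y axis, log2) against the sum of its changes from WT to miR-290 KO and from WT to miR-302 KO (x axis, log2), 1 point per gene, with equality as the diagonal line. The 1399 genes called above the sum (red) and the 1374 called below it (blue) spread along the vertical axis, while most sums lie near 0.

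Additivity depends on the scale on which it is judged. Of the called genes with recovered reads, 1371 of 1371 above the sum and 1284 of 1305 below it (98.4%) had a term of the same sign when it was computed from mean CPM without a logarithm. A called gene could depart from the sum by exceeding it, by falling short of it or by moving the other way. Here and below, falling short or opposing was counted only where the sum was at least 1 in size on the log2 scale. Of the 2773 genes 646 were counted so. The double KO moved opposite to the sum in 285 genes above and 297 below it. It moved the same way by less in 21 above and 43 below. The other 2127 include genes in which the double KO opposed a smaller sum. Dppa4 was such a gene, with single KO changes of 0.22 and 0.24 and a double KO change of −7.64. In 7 genes all 3 KO groups lay together on 1 side of WT, and there the term mirrors the WT level. Emd, a nuclear envelope protein, was such a gene. It had 32.1, 30.7 and 31.7 CPM in WT, 140 and 118 CPM in miR-290 KO, 121 and 151 CPM in miR-302 KO, and 141 and 120 CPM in the double KO. No KO colony overlapped WT, the KO groups overlapped each other, and the term was −2.05 (SE 0.28, adjusted p 0.000751).

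Whether 1 intact cluster keeps a gene near its WT level was asked of the single KO groups. Only 3 genes differed between miR-302 KO and WT (0.0235%; 1785 at an unadjusted p under 0.05) and 136 between miR-290 KO and WT (1.06%; 2085 at an unadjusted p under 0.05). Loss of the same clusters in cells that lacked the other changed far more genes: double KO and miR-290 KO differed in 3976 (31.1%) and double KO and miR-302 KO in 5814 (45.5%). The number for miR-302 KO against WT rested on colony 2, since without it the lone colony 1, the one with the library that stood apart, gave 1086 genes. The number for miR-290 KO fell to 0 without its colony 2 and was 235 with miR-302 KO colony 1 from library 1. A p above the threshold does not show that a gene stayed at its WT level, so intervals were used as well. The median 95% half-width of a single KO change was 0.78 on the log2 scale.

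In 3468 genes the 95% intervals of both single KO changes lay within 1 of WT on the log2 scale. Among these, 381 were called lower in the double KO than in each of the other 3 groups, and 408 higher. The 2 numbers are 2.98% and 3.19% of all 12778 genes tested. The 381 had median levels of 119 CPM in WT, 111 CPM in miR-290 KO, 122 CPM in miR-302 KO and 45.3 CPM in the double KO. The 408 had medians of 43.2, 46.9, 42.4 and 105 CPM. Both classes were defined by such differences, so these medians only describe their members. With miR-302 KO colony 1 from library 1 these classes held 593 and 692 genes. For most of the larger set of genes that the double KO changed, such a statement could not be made. A gene can miss the bound through a wide interval or through a single KO change, and these were not told apart. Of 2131 genes lower in the double KO than in WT by at least 1, 291 had both single KO intervals within 1, and 27 were called lower in miR-290 KO too. The median change of the 2131 was −2.79 in the double KO, −0.27 in miR-290 KO and −0.22 in miR-302 KO. Of 2807 genes higher by at least 1, 345 had both intervals within 1 and 85 were also called higher in miR-290 KO. Their median change was 1.97 in the double KO, 0.61 in miR-290 KO and −0.01 in miR-302 KO. Over all genes 3468 of 12778 had both intervals within 1, a larger share than in either set. In miR-290 KO 136 of all genes (1.06%) were called, in either direction.

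**Figure D2:**
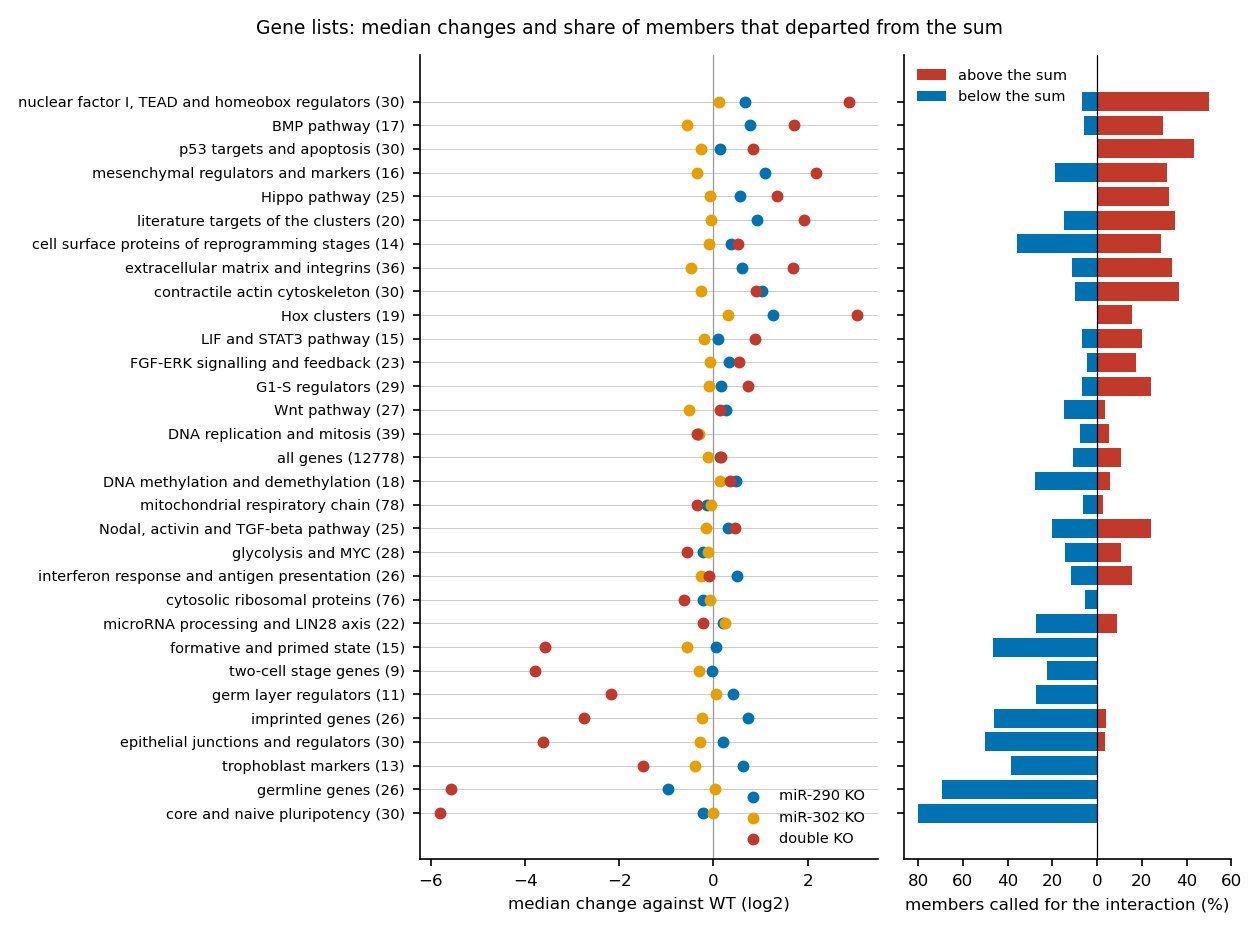
Left, median log2 change against WT of the measured members of each gene list in each of the 3 KO groups, with the number of members in parentheses. Right, percent of members called above (to the right) or below (to the left) the sum of the single KO changes. Pluripotency and germline genes lie lowest in the double KO, with medians of −5.80 and −5.58, and have no member called above the sum.

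Genes of core and naive pluripotency, which hold cells in the undifferentiated state, were below the sum as a group. Of the 30 members of this list, 24 were called below the sum and 0 above it, 80% against the 10.8% of all genes, and the list's median term was −5.39 against 0.13 for all genes. The list's median change against WT was −0.22 in miR-290 KO, 0.00 in miR-302 KO and −5.80 in the double KO. None of the 30 was called in either single KO. Over all genes only 1.06% were called in miR-290 KO and 0.0235% in miR-302 KO, so that count says little by itself. In 23 of the 29 members with recovered reads both double KO colonies lay below all 7 other samples, against 22.3% of all genes. The counts were the same, 0 above and 24 below, with miR-302 KO colony 1 from library 1. The double KO colonies carry the label iPSC and are called so here by that label.

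Nanog (chr6:122707489-122714633, GRCm38), a transcription factor of the core network, had 700, 637 and 699 CPM in WT, 556 and 445 CPM in miR-290 KO, 507 and 766 CPM in miR-302 KO, and 2.67 and 2.06 CPM in the double KO. The double KO colonies were lower than every other sample, while miR-302 KO overlapped WT. The term was −7.24 (SE 0.41, adjusted p 2.42e-06). Pou5f1 (chr17:35506032-35510777), which encodes Oct4, had 691, 496 and 736 CPM in WT, 793 and 1949 CPM in miR-290 KO, 1524 and 807 CPM in miR-302 KO, and 26.8 and 22.4 CPM in the double KO. All 4 single KO colonies lay above the highest WT library and the double KO colonies far below the lowest, so the double KO went against the direction of the single losses (term −6.26, SE 0.52, adjusted p 3.42e-05). Neither single KO change of Pou5f1 was called. Oct4, Sox2 and Klf4 were also the reprogramming factors, and transcripts of the cells' own genes and of introduced copies cannot be told apart here.

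Sox2, a partner of Oct4, had 388, 323 and 421 CPM in WT, 327 and 407 CPM in miR-290 KO, 317 and 400 CPM in miR-302 KO, and 27.96 and 43.6 CPM in the double KO. WT and both single KO groups overlapped, both single KO intervals lay within 1 of WT, and the double KO colonies were lower than every other sample (term −3.33, SE 0.36, adjusted p 0.00017). Sall4, Dppa2, Dppa4, Trim28 and Mybl2 met the same definition of a gene lowered in the double KO alone, 6 of the list's 9 members with narrow intervals. Dppa2, a chromatin factor of early embryos, had 128, 89.4 and 135 CPM in WT, 113 and 110 CPM in miR-290 KO, 122 and 118 CPM in miR-302 KO, and 0.0313 and 0.206 CPM in the double KO. Trim28, a co-repressor that silences transposons, was lowered least of these 6. It had 1828, 1038 and 1587 CPM in WT, 1478 and 1773 CPM in miR-290 KO, 1776 and 1457 CPM in miR-302 KO, and 637 and 743 CPM in the double KO (term −1.32, SE 0.37, adjusted p 0.0293). It lost its call in 4 of 9 fits with 1 sample left out.

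Esrrb, an orphan nuclear receptor of naive cells, had 333, 256 and 347 CPM in WT, 243 and 177 CPM in miR-290 KO, 310 and 300 CPM in miR-302 KO, and 0.585 and 0.492 CPM in the double KO (term −8.33, SE 0.31, adjusted p 2.53e-07). Both miR-290 KO colonies lay below the lowest WT library, a change that was not called. Zfp42, also known as Rex1, went the other way in the single KO groups: it had 73.6, 81.6 and 118 CPM in WT, 149 and 144 CPM in miR-290 KO, 188 and 152 CPM in miR-302 KO, and 0.573 and 0.376 CPM in the double KO. Its term, −8.86 (SE 0.37, adjusted p 3e-07), is therefore larger in size than its change against WT. Lin28a, an RNA-binding protein that blocks let-7 maturation, had 345, 232 and 227 CPM in WT, 128 and 180 CPM in miR-290 KO, 186 and 155 CPM in miR-302 KO, and 0.377 and 0.438 CPM in the double KO. All 4 single KO colonies lay below WT by amounts that were not called, and the double KO lay far below them. The terms of Nanog, Pou5f1, Sox2, Esrrb and Zfp42 were called under each alternative that tested them; Nanog on chromosome 6 and Zfp42 on chromosome 8 were not tested where those chromosomes were left out.

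Not all transcripts of pluripotent cells followed this pattern. L1td1, an RNA-binding protein of pluripotent cells, had 496, 428 and 318 CPM in WT, 462 and 483 CPM in miR-290 KO, 551 and 446 CPM in miR-302 KO, and 527 and 665 CPM in the double KO. Fgf4, a growth factor gene activated by Oct4 and Sox2, had 285, 236 and 295 CPM in WT, 292 and 188 CPM in miR-290 KO, 310 and 277 CPM in miR-302 KO, and 144 and 215 CPM in the double KO. For L1td1 the double KO overlapped miR-302 KO and lay above miR-290 KO, and for Fgf4 it overlapped miR-290 KO and lay below miR-302 KO. Neither gene was called, with terms of 0.10 (SE 0.33, adjusted p 0.855) and −0.52 (SE 0.37, adjusted p 0.335). These 2 genes were chosen after their values were seen.

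**Figure D3:**
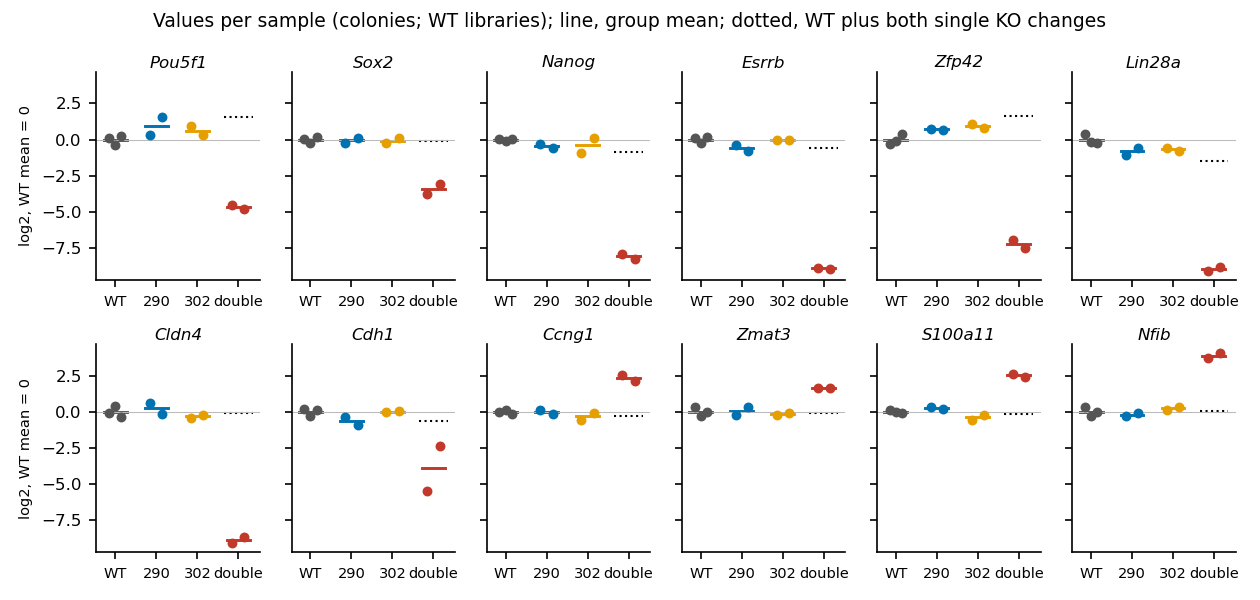
Level of 12 genes in each of the 9 iPSC samples on the log2 scale, with the WT mean set to 0. Points are WT libraries or KO colonies, and the dotted line marks WT plus both single KO changes, the level the double KO would have at a term of 0. Both double KO colonies of the 6 pluripotency genes and of Cldn4 lie far below the dotted line, the 2 of Cdh1 differ from each other, and those of Ccng1, Zmat3, S100a11 and Nfib lie above it.

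No measured marker of fibroblasts, trophoblast or the germ layers was called above the sum. Of 11 fibroblast markers, 3 were in the matrix, and in the double KO colonies Thy1 had 0 and 0.298 CPM, Pdgfrb 0.0627 and 0.142 CPM, and Col1a1 0.589 and 0.179 CPM. Of 13 trophoblast markers 5 were below the sum and 0 above, and of 11 germ layer regulators 3 were below and 0 above. Over all genes 10.9% were above the sum and 10.8% below, so 0 above in lists this small says little. Both double KO colonies lay above all 7 other samples in 2 of these 13 and 2 of these 11, against 29.8% of all genes. Of 6 endothelial and blood markers, 2 were above the sum and 1 below. In these bulk samples fewer cells that express a gene and less RNA per cell cannot be told apart.

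Of 18 genes of DNA methylation and demethylation, 5 were below the sum and 1 above (27.8% and 5.56%, against 10.8% and 10.9% of all genes). Dnmt3l, the catalytically inactive cofactor of the de novo methyltransferases, had the lowest term among genes called with each sample left out. It had 256, 222 and 260 CPM in WT, 438 and 435 CPM in miR-290 KO, 346 and 282 CPM in miR-302 KO, and 0.334 and 0.894 CPM in the double KO. Both single KO groups lay above WT and the double KO below all others (term −9.64, SE 0.40, adjusted p 3e-07). Dnmt3b, a de novo methyltransferase, had 75.8, 62.0 and 90.9 CPM in WT, 127 and 133 CPM in miR-290 KO, 64.2 and 55.6 CPM in miR-302 KO, and 6.04 and 6.36 CPM in the double KO (term −3.94, SE 0.31, adjusted p 2.23e-05). The other de novo enzyme, Dnmt3a, had a term of 0.72 (SE 0.43, adjusted p 0.252) and was not called. Tet1, a 5-methylcytosine oxidase of pluripotent cells, was below the sum (term −4.73), and its relative Tet3 above it. Tet3 had 1.55, 1.73 and 2.66 CPM in WT, 5.50 and 4.85 CPM in miR-290 KO, 3.07 and 4.70 CPM in miR-302 KO, and 34.7 and 32.6 CPM in the double KO (term 1.92, SE 0.52, adjusted p 0.0266). It lies on chromosome 6 and was not called with each chromosome centred. Genes of the formative and primed states that follow naive pluripotency were below the sum in 7 of 15 (46.7%), with a median term of −2.27. Among them Otx2, a homeobox factor of the epiblast, had 4.33, 10.1 and 3.96 CPM in WT, 4.15 and 3.50 CPM in miR-290 KO, 16.5 and 24.8 CPM in miR-302 KO, and 0.106 and 0.0285 CPM in the double KO.

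Members of signalling pathways that hold or end pluripotency were called in both directions. In the Nodal, activin and TGF-beta list 6 of 25 members were above the sum and 5 below. These are 24% and 20%, against 10.9% and 10.8% of all genes. The list's median term of −0.15 became 0.24 with each chromosome centred. The ligand Nodal, its co-receptor Tdgf1 and the antagonists Lefty1 and Lefty2 were all below the sum. Nodal had 124, 116 and 105 CPM in WT, 87.2 and 66.3 CPM in miR-290 KO, 90.1 and 99.0 CPM in miR-302 KO, and 1.74 and 5.30 CPM in the double KO (term −4.40, SE 0.54, adjusted p 0.000369). The single KO colonies were all below WT by amounts that were not called, and the double KO was far lower. The TGF-beta co-receptor Eng, the Smad co-repressor Skil and the latency proteins Ltbp1 and Ltbp3 were above the sum. Skil had 52.0, 70.6 and 68.8 CPM in WT, 69.6 and 60.2 CPM in miR-290 KO, 37.5 and 51.7 CPM in miR-302 KO, and 137 and 197 CPM in the double KO (term 1.92, SE 0.36, adjusted p 0.00492).

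Of 17 genes of the BMP pathway 5 were above the sum (29.4%, against 10.9% of all genes) and 1 below. The median term was 1.48. With miR-302 KO colony 1 from library 1 the numbers were 3 and 1 (17.6% above), since the receptor Acvr1 and the pseudoreceptor Bambi were no longer called. The type II receptor Bmpr2 had 15.6, 9.36 and 11.2 CPM in WT, 20.9 and 22.3 CPM in miR-290 KO, 11.6 and 15.2 CPM in miR-302 KO, and 69.8 and 65.1 CPM in the double KO (term 1.48, SE 0.40, adjusted p 0.0268). Id2, an inhibitor of differentiation factors and a BMP target, had 44.8, 36.4 and 31.8 CPM in WT, 180 and 124 CPM in miR-290 KO, 34.1 and 34.4 CPM in miR-302 KO, and 280 and 712 CPM in the double KO. For Id2 the miR-290 loss alone was called (log2 change 1.90, adjusted p 0.041), so it was above its WT level with miR-302 intact, and the double KO was higher than the sum (term 1.81, SE 0.52, adjusted p 0.0328).

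In FGF-ERK signalling 4 of 23 genes were above the sum (17.4%, against 10.9% of all genes) and 1 below, and the 4 were the feedback genes Spred1, Dusp4 and Dusp6 and the immediate early gene Fos. Dusp6, a phosphatase of ERK, had 9.09, 7.01 and 8.12 CPM in WT, 10.97 and 11.6 CPM in miR-290 KO, 0.758 and 3.94 CPM in miR-302 KO, and 84.5 and 52.3 CPM in the double KO. Both miR-302 KO colonies lay below WT and both double KO colonies above miR-290 KO (term 4.96, SE 0.84, adjusted p 0.00283). The former difference was not called. Within miR-302 KO colony 1, Dusp6 had 1.25 CPM in library 1 and 0.268 CPM in library 2, the one that stood apart. Of 15 genes of LIF and STAT3 signalling 3 were above the sum (20%, against 10.9% of all genes) and 1 below. Of 27 Wnt genes 1 was above and 4 below (14.8%, against 10.8% of all genes). These are few genes, and no difference between the pathways was tested. Sp5, a direct target of beta-catenin, had 21.9, 10.6 and 16.7 CPM in WT, 25.5 and 18.9 CPM in miR-290 KO, 8.88 and 6.53 CPM in miR-302 KO, and 0.0981 and 0.0298 CPM in the double KO (term −5.60, SE 0.59, adjusted p 0.000145).

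Epithelial genes hold pluripotent cells in tight colonies. Of 30 junction proteins and epithelial regulators 15 were called below the sum (50%, against 10.8% of all genes), 1 above and 14 neither, with a median term of −2.93. The list's median change was 0.20 in miR-290 KO, −0.28 in miR-302 KO and −3.62 in the double KO. Cldn4 (chr5:134945123-134946934), a tight junction claudin, had 123, 173 and 101 CPM in WT, 212 and 119 CPM in miR-290 KO, 99.5 and 115 CPM in miR-302 KO, and 0.102 and 0.174 CPM in the double KO. WT and both single KO groups overlapped and the double KO was lower than all (term −8.83, SE 0.44, adjusted p 1.08e-06). Epcam, an epithelial adhesion molecule, had 57.2, 95.7 and 69.5 CPM in WT, 107 and 50.4 CPM in miR-290 KO, 49.1 and 50.5 CPM in miR-302 KO, and 3.30 and 4.96 CPM in the double KO (term −3.47, SE 0.52, adjusted p 0.00135). Cdh1, E-cadherin, fell unequally in the 2 double KO colonies: it had 649, 452 and 600 CPM in WT, 448 and 296 CPM in miR-290 KO, 563 and 599 CPM in miR-302 KO, and 12.8 and 109 CPM in the double KO. Its term of −3.31 (SE 0.98, adjusted p 0.0376) was called in 2 of 9 fits with a sample left out, and it was lost with each chromosome centred, Cdh1 being on chromosome 8. The keratins Krt8 and Krt18 also lay lowest in the double KO, and 1 of the 3 WT libraries was above the other 2. Krt8 had 36.0, 224 and 44.2 CPM in WT, 309 and 139 CPM in miR-290 KO, 26.0 and 46.6 CPM in miR-302 KO, and 0.640 and 1.13 CPM in the double KO. Jup, plakoglobin, was the member above the sum (term 2.30), and it was not called with miR-302 KO colony 1 from library 1.

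Actin and matrix genes were called above the sum more often than below it, and mesenchymal genes were called in both directions. Over all genes 10.9% were above the sum and 10.8% below. Of 16 mesenchymal regulators and markers 5 were above and 3 below the sum (31.2% and 18.8%). The 3 below were Mmp2, Thy1 and Tgfbi, with terms of −6.00, −4.38 and −2.93. Vim, the intermediate filament vimentin, had 153, 81.4 and 116 CPM in WT, 419 and 437 CPM in miR-290 KO, 106 and 135 CPM in miR-302 KO, and 3113 and 1948 CPM in the double KO. It rose in miR-290 KO alone (log2 change 1.91, adjusted p 0.019) and by more than the sum in the double KO (term 2.52, SE 0.42, adjusted p 0.0025). Zeb2, a repressor of E-cadherin, had 0.481, 0.837 and 0 CPM in WT, 1.52 and 1.77 CPM in miR-290 KO, 0 reads in both miR-302 KO colonies, and 32.1 and 19.04 CPM in the double KO. It was called above the sum (adjusted p 0.00671) with each sample left out too, and the size of its term depends on the prior. Its relative Zeb1 was not called (term −0.47, SE 0.63, adjusted p 0.62). Of 30 contractile actin genes 11 were above and 3 below (36.7% and 10%). Of 36 genes of the matrix and its receptors 12 were above and 4 below (33.3% and 11.1%). The 3 contractile genes below were Tpm2, Myl9 and Flnc, with terms of −5.27, −4.24 and −4.07. With each sample left out in turn, 6 mesenchymal, 4 contractile and 10 matrix genes kept their calls. S100a11, a calcium-binding protein of actin-rich cells, had 275, 256 and 243 CPM in WT, 319 and 299 CPM in miR-290 KO, 184 and 228 CPM in miR-302 KO, and 1579 and 1397 CPM in the double KO. Both single KO intervals lay within 1 of WT, and the double KO was above all other samples (term 2.65, SE 0.28, adjusted p 0.00014). Myh9 and Flna, non-muscle myosin and filamin, were also higher in the double KO alone, and Flna lost its call with each chromosome centred. Col4a1, a collagen of basement membranes, had 24.1, 30.01 and 18.4 CPM in WT, 109 and 89.4 CPM in miR-290 KO, 17.8 and 23.04 CPM in miR-302 KO, and 653 and 735 CPM in the double KO. Here loss of miR-290 sufficed for a called rise (log2 change 1.99, adjusted p 0.017), loss of miR-302 did not give one, and the double KO was higher than the sum (term 3.14, SE 0.40, adjusted p 0.000533).

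A list of 20 genes described in the literature as targets of either cluster was read in the same way. Of these, 7 were above the sum and 3 below (35% and 15%, against 10.9% and 10.8% of all genes). The median term was 0.96, and the list's median change was 0.92 in miR-290 KO, −0.05 in miR-302 KO and 1.93 in the double KO. In 17 of the 18 members with recovered reads both double KO colonies lay above all 7 other samples, against 29.8% of all genes. The letters AGCACTT, which pair with the shared seed, stood on the sense strand in the longest annotated 3′ UTR of 18 of the 20 members (90%), against 17.5% of 11727 genes with a UTR, and literature targets were in part found through this site. The windows below are from GRCm38, 5′ to 3′ along the transcript, with the site in capitals. They are shown because the first 3 belong to genes above the sum and the last to a gene near it. In the order listed they lie at chr14:57691076-57691105 (minus strand), chr12:112653985-112654014 (minus strand), chr17:29099816-29099845 (plus strand) and chr12:54860614-54860643 (minus strand). A match is a description of letters and no evidence of binding.
Lats2: cagtatggaaagAGCACTTattttgtggat
Akt1: agcccttctcctAGCACTTgtccttttaga
Cdkn1a: tcagacctgaatAGCACTTtggaaaaatga
Cfl2: ctattcgttaaaAGCACTTtttttttaatg

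Lats2, a kinase of the Hippo pathway, had 10.9, 6.90 and 7.17 CPM in WT, 19.7 and 14.1 CPM in miR-290 KO, 5.19 and 9.75 CPM in miR-302 KO, and 146 and 111 CPM in the double KO. The double KO colonies stood above all others (term 3.85, SE 0.80, adjusted p 0.00803). Within miR-302 KO colony 1, library 1 had 10.1 CPM and library 2 had 0.268 CPM, and with library 1 alone the term was 2.69. Akt1, a survival kinase, had 41.7, 58.4 and 49.6 CPM in WT, 95.2 and 58.2 CPM in miR-290 KO, 19.9 and 47.7 CPM in miR-302 KO, and 306 and 356 CPM in the double KO (term 3.04, SE 0.60, adjusted p 0.0063). With library 1 alone it was 2.55 and still called. Nr2f2, an orphan nuclear receptor with no AGCACTT in its UTR, had 1.44, 1.57 and 1.43 CPM in WT, 6.83 and 7.72 CPM in miR-290 KO, 0.397 and 1.59 CPM in miR-302 KO, and 72.2 and 158 CPM in the double KO (term 4.92, SE 0.94, adjusted p 0.00505). These 3 genes were called with each sample left out in turn.

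Cdkn1a, the cyclin-dependent kinase inhibitor p21, had 189, 157 and 224 CPM in WT, 272 and 432 CPM in miR-290 KO, 226 and 191 CPM in miR-302 KO, and 886 and 842 CPM in the double KO (term 1.23, SE 0.35, adjusted p 0.0306). Like Rbl2, a pocket protein (term 2.75), Rhoc, a small GTPase (1.39), and Trp53inp1, a p53-induced protein (1.27), it kept its call in only 1 or 2 of 9 fits with a sample left out. Within miR-302 KO colony 1, Rbl2 had 2.95 CPM in library 1 and 0.179 CPM in library 2. Cfl2, a cofilin that severs actin filaments, had 33.7, 32.3 and 31.9 CPM in WT, 69.5 and 83.5 CPM in miR-290 KO, 35.7 and 37.4 CPM in miR-302 KO, and 93.9 and 109 CPM in the double KO. It rose in miR-290 KO (log2 change 1.22, adjusted p 0.023), and its term of 0.29 (SE 0.29, adjusted p 0.495) was within error of additivity. Terms of 0.5 or less that were not called were also found for the caspase Casp2 (0.35, SE 0.44) and the methyl-CpG protein Mbd2 (0.43, SE 0.45). The 3 targets below the sum were Lefty1, Lefty2 and Dkk1, antagonists of Nodal and Wnt. Dkk1, with no site in its UTR, had 1.55, 3.87 and 1.71 CPM in WT, 3.31 and 2.76 CPM in miR-290 KO, 1.72 and 1.62 CPM in miR-302 KO, and 0.0313 and 0.0285 CPM in the double KO.

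**Figure D4:**
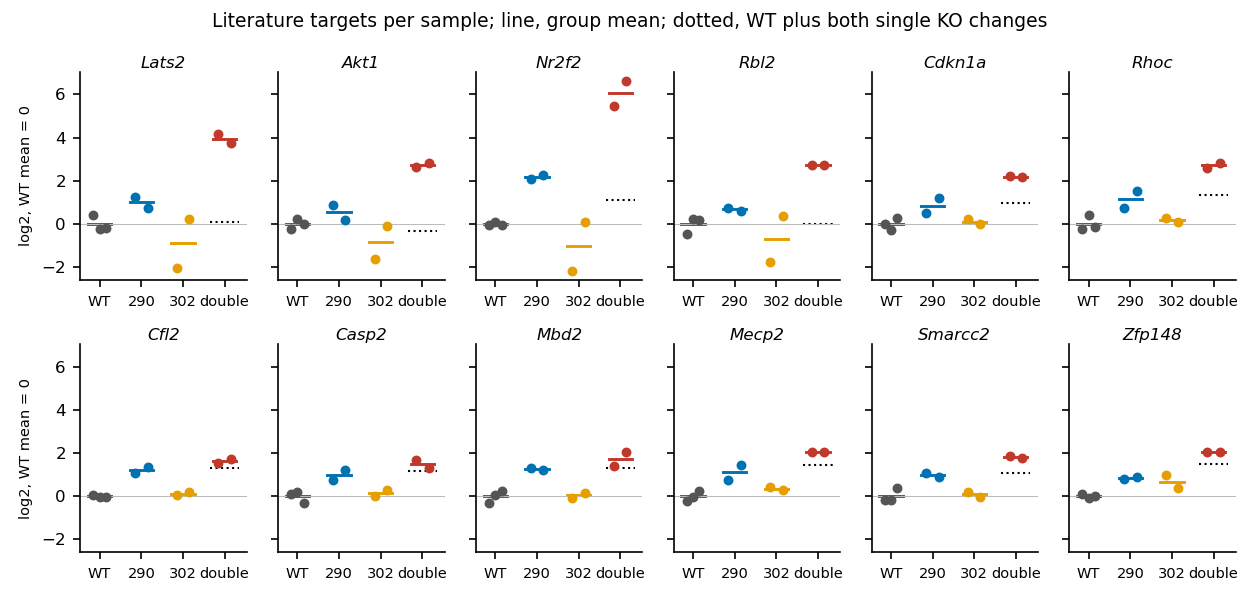
Level of 12 literature targets in each of the 9 iPSC samples on the log2 scale, with the WT mean set to 0 and the dotted line at WT plus both single KO changes. The double KO colonies of Lats2, Akt1 and Nr2f2 lie above the line, with terms of 3.85, 3.04 and 4.92, and those of Cfl2, Casp2 and Mbd2 lie near it.

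Over all genes with a UTR, site number went with the double KO level more than with the term. Genes with 0, 1 and at least 2 sites numbered 9671, 1666 and 390. Their median change in the double KO was 0.12, 0.36 and 0.58, and their median term 0.12, 0.24 and 0.26. UTR length moved with site number, with medians of 955, 2295 and 3934 bases, and its part was not tested in a fit. Among genes in the middle range of lengths (from the lower to the upper quartile) the median term was 0.17, 0.18 and 0.26. A site was held by 19.2% of genes above the sum and 13.7% of those below, against 17.5% of all genes with a UTR. Genes above the sum had longer UTRs, with a median of 1472 bases against 1164 over all genes. The share was 26.2% of genes higher in the double KO alone, 13.6% of those lower in the double KO alone, and 21.9% of genes higher in the double KO whose term was not called. Per kilobase of UTR, sites numbered 0.132 over all genes, 0.125 above the sum and 0.111 below it. They numbered 0.162 in genes higher in the double KO alone and 0.116 in those lower in it alone. The site of miR-367, GTGCAAT, was held by 7.54% of all genes, 9.98% of genes above the sum and 13.6% of those higher in the double KO alone. Genes with 0, 1 and at least 2 such sites numbered 10843, 804 and 80, with a median term of 0.13, 0.24 and 0.50 and a median double KO change of 0.15, 0.39 and 0.88, so the trend with site number was also seen for a seed the clusters do not share. UTR length moved with this number too, with medians of 1078, 2406 and 3794 bases. Its letters cannot overlap those of AGCACTT.

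Of 29 regulators of the G1 to S passage 7 were above the sum and 2 below (24.1% and 6.9%). The shares over all genes were 10.9% and 10.8%. The inhibitors Cdkn1a, Cdkn2a and Cdkn2d were among the members above the sum and the inhibitor Cdkn1c among those below. Ccnd2 (chr6:127125162-127152188), cyclin D2, was the member with the highest term. It had 7.59, 6.07 and 3.34 CPM in WT, 41.4 and 72.3 CPM in miR-290 KO, 11.9 and 5.72 CPM in miR-302 KO, and 4404 and 3652 CPM in the double KO. miR-290 loss alone raised it (log2 change 3.31, adjusted p 0.00923), and the double KO exceeded the sum (term 6.24, SE 0.54, adjusted p 4.01e-05). Cdkn2a, which encodes p16 and p19Arf, had 27.9, 31.6 and 25.4 CPM in WT, 33.8 and 29.3 CPM in miR-290 KO, 6.43 and 26.4 CPM in miR-302 KO, and 297 and 235 CPM in the double KO (term 4.38, SE 0.76, adjusted p 0.0032). Within miR-302 KO colony 1, Cdkn2a had 10.3 CPM in library 1 and 2.59 CPM in library 2, the one that stood apart. Cdkn1c, the inhibitor p57, had 17.2, 37.0 and 23.2 CPM in WT, 87.8 and 128 CPM in miR-290 KO, 9.75 and 7.07 CPM in miR-302 KO, and 8.32 and 1.41 CPM in the double KO. The double KO overlapped miR-302 KO (term −3.22, SE 0.95, adjusted p 0.0364), and the call was lost with each chromosome centred. Ccnd1 and Ccne1, the cyclins D1 and E1, were not called (terms 0.40 and −0.40). Of 39 genes of replication and mitosis 2 were above and 3 below the sum (5.13% and 7.69%, against 10.9% and 10.8% of all genes). With miR-302 KO colony 1 from library 1 these were 2 and 6 (5.13% and 15.4%, against 10.9% and 12.5%).

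Targets of p53 and apoptosis genes departed in 1 direction: 13 of 30 were above the sum (43.3%, against 10.9% of all genes) and 0 below. The median term was 1.20, and the median change was 0.13, −0.27 and 0.85 in the miR-290, miR-302 and double KO groups. The 13 and 0 held with miR-302 KO colony 1 from library 1, where the median term was 0.79. Ccng1, cyclin G1, had 150, 170 and 140 CPM in WT, 171 and 136 CPM in miR-290 KO, 108 and 150 CPM in miR-302 KO, and 888 and 678 CPM in the double KO (term 2.65, SE 0.33, adjusted p 0.000422). Phlda3, a repressor of Akt, had 34.6, 34.0 and 29.8 CPM in WT, 37.7 and 40.6 CPM in miR-290 KO, 31.8 and 35.1 CPM in miR-302 KO, and 242 and 227 CPM in the double KO (term 2.65, SE 0.28, adjusted p 0.000164). Ccng1, Phlda3, Bbc3 and Zmat3 were among the members higher in the double KO alone, with both single KO intervals within 1 of WT. Perp, a membrane effector of p53, had 6.68, 10.7 and 3.62 CPM in WT, 18.2 and 8.30 CPM in miR-290 KO, 5.12 and 4.39 CPM in miR-302 KO, and 318 and 366 CPM in the double KO (term 5.40, SE 0.71, adjusted p 0.000602). Mdm2, the ligase that degrades p53, was above the sum in another way: it had 168, 141 and 99.4 CPM in WT, 98.9 and 64.0 CPM in miR-290 KO, 63.4 and 104 CPM in miR-302 KO, and 169 and 154 CPM in the double KO. Its double KO level overlapped WT and its term of 1.79 (SE 0.44, adjusted p 0.0183) came with lower single KO means. Trp53 itself had a term of 0.12 (SE 0.58, adjusted p 0.901).

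The Hippo pathway, a kinase cascade that limits the coactivators YAP and TAZ, had 8 of 25 members above the sum and 0 below. That is 32% above, against 10.9% of all genes, and the median term was 0.99. With miR-302 KO colony 1 from library 1 the count was 7 and 0. The kinases Lats1, Lats2 and Stk3, their adaptor Sav1, the coactivator gene Wwtr1 and the DNA-binding partner Tead1 were among the 8. Wwtr1, which encodes TAZ, had 38.8, 53.8 and 72.5 CPM in WT, 77.7 and 73.2 CPM in miR-290 KO, 52.1 and 49.7 CPM in miR-302 KO, and 246 and 261 CPM in the double KO (term 1.84, SE 0.37, adjusted p 0.00701). Yap1 was not called (term 1.09, SE 0.45, adjusted p 0.112).

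Developmental regulators of the nuclear factor I, TEAD and homeobox families had 15 of 30 members above the sum and 2 below. These are 50% and 6.67%, against 10.9% and 10.8% of all genes, and the list's median term was 1.63. The list's median change was 0.67 in miR-290 KO, 0.12 in miR-302 KO and 2.89 in the double KO. Nfib (chr4:82290173-82506751), a nuclear factor I, had 44.1, 27.4 and 33.5 CPM in WT, 30.3 and 32.4 CPM in miR-290 KO, 38.8 and 43.2 CPM in miR-302 KO, and 460 and 571 CPM in the double KO (term 3.85, SE 0.36, adjusted p 6.65e-05). WT and both single KO groups overlapped, so either cluster alone went with a WT level of Nfib. Its relative Nfia had 1.92, 1.83 and 1.84 CPM in WT, 10.0 and 13.2 CPM in miR-290 KO, 3.31 and 3.14 CPM in miR-302 KO, and 210 and 222 CPM in the double KO. Nfia rose in miR-290 KO (log2 change 2.53, adjusted p 0.019), and its term was 4.08 (SE 0.55, adjusted p 0.000751). Among 19 genes of the Hox clusters 3 were above the sum (15.8%, against 10.9% of all genes) and 0 below.

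Germline genes, silent in most somatic cells, were below the sum in 18 of 26 (69.2%, against 10.8% of all genes) with 0 above. The list had a median term of −3.97 (−4.37 with groups at 0 reads set to the floor of 3 reads per group). The list's median change was −0.97 in miR-290 KO, 0.04 in miR-302 KO and −5.58 in the double KO. Dazl, an RNA-binding protein of germ cells, had 19.2, 17.6 and 24.1 CPM in WT, 14.1 and 8.98 CPM in miR-290 KO, 15.95 and 33.4 CPM in miR-302 KO, and 0 reads in both double KO colonies. The double KO was at least 445-fold lower than WT. Ddx4, a germ cell RNA helicase also known as Vasa, had 5.94, 9.15 and 8.60 CPM in WT, 7.496 and 8.18 CPM in miR-290 KO, 5.85 and 4.28 CPM in miR-302 KO, and 0 and 0.0298 CPM in the double KO. Sycp3, of the synaptonemal complex, was already called lower in miR-290 KO (log2 change −2.41, adjusted p 0.033). It had 4.12, 8 and 7.71 CPM in WT, 1.36 and 1.03 CPM in miR-290 KO, 7.48 and 5.49 CPM in miR-302 KO, and 0 reads in both double KO colonies.

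Housekeeping lists were read in the same way. Of 76 cytosolic ribosomal proteins 4 were below the sum (5.26%, against 10.8% of all genes) and 0 above, with a median term of −0.35. With miR-302 KO colony 1 from library 1, 11 were below (14.5%, against 12.5% of all genes). Against WT, 42 of 76 were called lower in the double KO, against 20.6% of all genes, with a median change of −0.63. In 42 of the 58 with recovered reads both double KO colonies lay below all 7 other samples, against 22.3% of all genes, and 8 of 76 were lower in the double KO alone, against 2.98%. Ribosomal protein genes have near-identical pseudogene copies, so their reads are uncertain. Of 78 respiratory chain genes 2 were above and 5 below, and of 28 genes of glycolysis and MYC 3 were above and 4 below. For the respiratory chain these are 2.56% and 6.41% and for the last list 10.7% and 14.3%, beside 10.9% and 10.8% of all genes.

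Whole chromosomes moved with the term. The median gene of chromosome 6 lay 0.48 and 0.50 higher in the double KO colonies, relative to WT and to all genes, and −0.04 to 0.10 in the single KO colonies. On chromosome 6, 20.6% of genes were above the sum, and 10.4% after each chromosome was centred on its median in each sample. Chromosome 8 lay higher in all 4 single KO colonies, by 0.29 and 0.33 in miR-290 KO and 0.34 and 0.17 in miR-302 KO, and lower in the double KO, by −0.25 and −0.19. There 23.4% of genes were below the sum, and 8.24% after centring. Chromosomes 2 and 11 lay 0.48 and 0.32 higher in double KO colony 1, and chromosome 18 lay 0.49 higher in miR-290 KO colony 2. After centring, 1322 genes were above and 1336 below the sum, 2405 of the original calls were shared with the same sign, and the pluripotency count remained 0 above and 24 below. DNA copy number was not measured, and its part in these shifts was not tested.

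**Figure D5:**
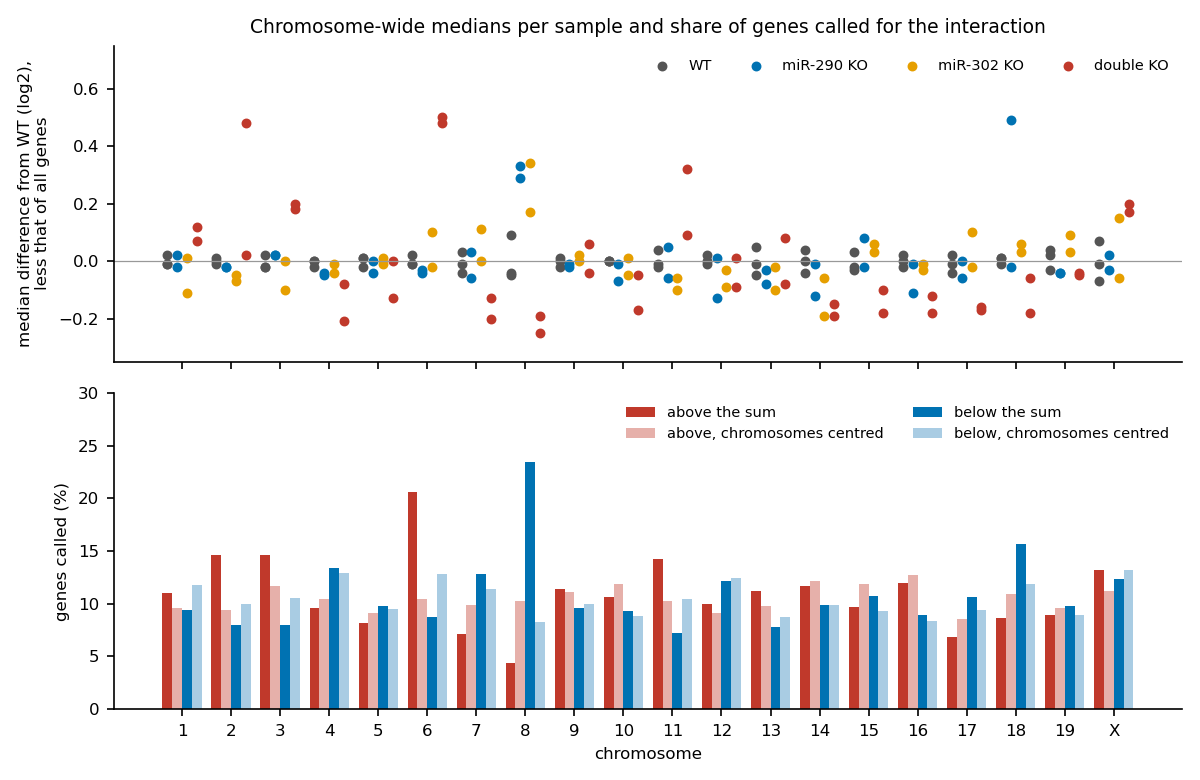
Top, median log2 difference from WT of the genes of each chromosome, less that of all genes, for each sample. Bottom, percent of the genes of each chromosome called above or below the sum, before and after centring each chromosome. Chromosome 6 in the double KO and chromosome 8 in all KO colonies stand off 0, and their shares called come near those of other chromosomes after centring.

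ESC with a single cluster deleted, made separately from the iPSC, gave a further view of an intact cluster. In both ESC groups 28 of 30 pluripotency genes lay within 1 of WT iPSC on the log2 scale (93.3%, against 83.1% of all genes). Nanog had 578 and 539.8 CPM in miR-290 KO ESC and 1040 and 752 CPM in miR-302 KO ESC. No ESC without both clusters and no WT ESC were analysed here, so the term was not computed in ESC.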

How the data were processed

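RNA of each sample was counted by QuantSeq 3′ FWD sequencing (single-end reads) from 200 ng per library, per the labels' protocols. Trim Galore 0.66, STAR, Salmon 1.4.0, FastQC 0.11.9, MultiQC, limma, DESeq2 1.34.0 and the mm10 build are named in the submitters' processing notes without their order. The values are log2 expression in the matrix the authors deposited, read from the values as log2 of CPM plus a prior of about 0.14 and a constant per gene. Whole reads were recovered for 12292 of 12778 genes (99.6% of values whole within 0.02 reads); the other 486 have log2 values only. A further 6 columns of per-sample values were not used. 

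Libraries of a colony were averaged and 9 samples (3 WT libraries, 6 colonies) were fitted in limma 3.58.1 (R 4.3.3) with the trend in the spread, 5 residual degrees of freedom and Benjamini-Hochberg adjustment over 12778 genes; Python 3.11.15 was used otherwise. The test was checked on simulated data. A fold against a group at 0 uses a floor of 3 reads over the group and covers counting error only; a fitted term then depends on the prior and is no bound. 3′ UTRs are the longest per gene in GENCODE M21 (GRCm38), of at least 50 bases.

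Genes are named if they are among the 12 highest or 12 lowest terms called with each sample left out, among the 4 called members per list and direction with the largest terms, among the 6 leading genes that set WT apart or fell short of the sum, literature targets, or sex chromosome and cell type markers. All other genes named were chosen after their values were seen: Bbc3, Ccnd1, Ccne1, Ccng1, Cdh1, Ddx4, Dnmt3a, Dppa4, Epcam, Fgf4, Flna, L1td1, Larp7, Lats1, Mdm2, Mybl2, Myh9, Nfia, Nfib, Phlda3, Sall4, Stk3, Sycp3, Tead1, Trim28, Trp53, Vim, Yap1, Zeb1, Zmat3 and, in the closing section, Hmga1 and Igf2bp1. The question, members and lists were chosen with earlier results of these data known. Alternatives changed the filter, pseudocount, scaling, libraries, samples, chromosomes, spread and threshold. A few genes are not reported here.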

Additional observations from a re-analysis of the deposited data

Results flagged for a closer look

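The effect of losing miR-302 differed between cells with and without miR-290 in 1399 genes upward and 1374 downward, by the interaction term in limma. The genes with the lowest and highest terms, among those called with each sample left out, are given here as values.

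The 12 lowest terms were −9.64 for Dnmt3l, −9.37 for Utf1, −9.31 for Rex2, −9.09 for Lefty2, −8.90 for Dppa2, −8.86 for Zfp42, −8.83 for Cldn4, −8.82 for Dppa5a, −8.77 for Triml1, −8.75 for 2610305D13Rik, −8.67 for Lincenc1 and −8.65 for Calcoco2. Utf1, a chromatin factor of undifferentiated cells, had 109, 90.0 and 102 CPM in WT, 145 and 178 CPM in miR-290 KO, 102 and 94.0 CPM in miR-302 KO, and 0.0707 and 0.148 CPM in the double KO. Calcoco2, an autophagy receptor, had 295, 221 and 265 CPM in WT, 308 and 388 CPM in miR-290 KO, 359 and 334 CPM in miR-302 KO, and 1.68 and 0.743 CPM in the double KO. In both genes the double KO lay far below every other sample. Both miR-290 KO colonies of Utf1 and every single KO colony of Calcoco2 lay above all WT libraries, which adds to the size of their terms. Lefty2, Rex2, Dppa5a and 2610305D13Rik have log2 values only.

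The 12 highest terms were 10.90 for Sprr2a2, 8.72 for Kcnma1, 8.48 for Xist, 8.37 for Tenm2, 8.31 for Igfbp3, 8.25 for Gm14296, 8.21 for Ghr, 8.04 for Adamts7, 7.90 for Brinp1, 7.81 for Hs3st3a1, 7.68 for Heph and 7.62 for Arhgef28. Igfbp3, which binds insulin-like growth factors, had 2.41, 6.80 and 7.10 CPM in WT, 9.68 and 9.79 CPM in miR-290 KO, 1.45 and 3.74 CPM in miR-302 KO, and 1286 and 774 CPM in the double KO. Ghr, the growth hormone receptor, had 1.02, 2.25 and 1.84 CPM in WT, 9.68 and 5.72 CPM in miR-290 KO, 0.0446 and 0.148 CPM in miR-302 KO, and 319 and 251 CPM in the double KO. For Ghr part of the term is the low miR-302 KO level, a difference from WT of −2.96 on the log2 scale. Brinp1, a neural protein, had 0, 0.209 and 0.273 CPM in WT, 0.714 and 1.13 CPM in miR-290 KO, 1.05 and 0.0730 CPM in miR-302 KO, and 285 and 284 CPM in the double KO. Gm14296 differed in kind: its double KO change against WT was 0.58 and not called, and its single KO changes were −2.85 and −4.82.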

How the results depend on the processing

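Of 277 called genes followed, none had a term that changed direction in a setting that tested it. They were chosen by their calls and the settings share most samples, so a change of direction was unlikely from the start. The balance of the counts did move, from 1399 above and 1374 below to 1391 and 1603 with miR-302 KO colony 1 from library 1. The median term of the Nodal list, which is no call, turned positive with each chromosome centred (0.24) and with log2 of CPM plus 1 or 5. It also did so without double KO colony 1, miR-290 KO colony 2 or miR-302 KO colony 2. With the colony or library number as a replicate block, 750 genes were above the sum and 1010 below, 0 differed between miR-302 KO and WT and 0 between miR-290 KO and WT, and 178 stood lower and 174 higher in the double KO alone; the numbers do not pair the samples (correlations of deviations −0.27, −0.03 and −0.01). At an adjusted p under 0.01, 473 genes were above and 678 below the sum, 2197 differed between double KO and miR-290 KO, 3727 between double KO and miR-302 KO and 4 between miR-290 KO and WT, 168 stood lower and 186 higher in the double KO alone, 2 set WT apart and 242 fell short of the sum or opposed it. Without the 5 shifted chromosomes 893 were above the sum, 48 differed between miR-290 KO and WT, 259 were higher in the double KO alone, 4 set WT apart and 396 fell short. Without the genes with the lowest levels (below the first quartile) 863 were below, 2645 differed between double KO and miR-290 KO and 316 fell short. With log2 of CPM plus 5, 1665 were above and 1133 below the sum (59.5% above), 294 differed between miR-290 KO and WT, 743 stood lower and 1414 higher in the double KO alone and 244 fell short. miR-290 KO and WT differed in 265 genes with log2 of CPM plus 1, 284 with sample weights, 57 without the trend, 243 with libraries as samples (7 then between miR-302 KO and WT), 235 with miR-302 KO colony 1 from library 1 (593 lower and 692 higher in the double KO alone) and 78 with miR-290 KO colony 2 from library 1.

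With 1 sample left out, the lone sample of a group was assumed to vary like the others. The counts were then 691 to 2258 above and 903 to 1467 below the sum, 0 to 1086 for miR-302 KO and 0 to 184 for miR-290 KO against WT, 2518 to 4482 for double KO against miR-290 KO, 4158 to 5737 against miR-302 KO, 164 to 386 lower and 168 to 452 higher in the double KO alone, 3 to 13 that set WT apart, and 356 to 1552 that fell short. Of 277 genes followed, 2 to 123 lost their call, by setting. With 2 colonies a group and a median SE of 0.52, small departures from the sum were not detectable.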

Other observations

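Imprinted genes, which are expressed from 1 parental copy, were below the sum in 12 of 26 members and above it in 1, against 10.8% and 10.9% of all genes, with a median term of −2.79. The noncoding RNA Meg3 had 231, 254 and 142 CPM in WT, 330 and 2.50 CPM in miR-290 KO, 427 and 259 CPM in miR-302 KO, and 0.0627 and 0.0868 CPM in the double KO. Its neighbour Rian had 98.4 and 2.42 CPM in the same miR-290 KO colonies, so both RNAs were low in miR-290 KO colony 2 as well as in the double KO. The growth factor gene Igf2 had 20.6, 121 and 28.1 CPM in WT, 490 and 349 CPM in miR-290 KO, 10.5 and 13.2 CPM in miR-302 KO, and 1.07 and 10.5 CPM in the double KO. Mest had 85.2, 61.9 and 57.3 CPM in WT, 149 and 96.0 CPM in miR-290 KO, 43.8 and 69.2 CPM in miR-302 KO, and 0.0707 and 0.921 CPM in the double KO. The member above the sum was Gnas, which encodes a stimulatory G protein (term 1.88, SE 0.35, adjusted p 0.00483 in limma).

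In the list of microRNA processing and the LIN28 axis 6 of 22 genes were below the sum and 2 above. These are 27.3% and 9.09%, against 10.8% and 10.9% of all genes. Lin28b, which blocks let-7 maturation, had 11.5, 14.5 and 13.2 CPM in WT, 21.5 and 27.5 CPM in miR-290 KO, 14.8 and 12.1 CPM in miR-302 KO, and 0.282 and 0.0298 CPM in the double KO. The let-7 targets Igf2bp1 and Hmga1 were lower in the double KO alone, with 352 and 334 CPM of Igf2bp1 against 633 to 1265 CPM in the other 7 samples. Ago1, an effector of all microRNAs, had 47.1, 37.4 and 45.0 CPM in WT, 77.0 and 76.5 CPM in miR-290 KO, 47.2 and 51.9 CPM in miR-302 KO, and 39.3 and 40.9 CPM in the double KO, so its term of −1.13 came with a double KO level that overlapped WT. Among interferon response and antigen presentation genes 4 of 26 were above and 3 below (15.4% and 11.5%, against 10.9% and 10.8% of all genes). Ly6a, the surface protein Sca-1, had 0.107, 0.105 and 0.478 CPM in WT, 10.3 and 6.49 CPM in miR-290 KO, 0.0730 and 7.74 CPM in miR-302 KO, and 1453 and 1192 CPM in the double KO (term 6.43, SE 1.35, adjusted p 0.00831 in limma).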
